A study of Mus musculus with 17 samples.

Results

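Leukemias that grew from Myc/Bcl2-transformed DN2 cells were compared with each other according to their level of Itgam, the gene of the integrin chain CD11b. The members were chosen by a measured value, the Itgam level itself: of the 5 arrays labelled DN2-derived myeloid leukemia, 2 (arrays 1 and 3) had Itgam above a log2 level of 6 and 3 (arrays 2, 4 and 5) had it at or below 6. These 5 arrays are part of a series of 17, with 3 arrays of LSK-derived leukemia, 5 of GMP-derived leukemia, 2 of healthy DN2 cells and 2 of healthy GMP. DN2 cells are thymic T-cell progenitors without CD4 and CD8, LSK cells are marrow cells enriched for stem cells, and GMP are granulocyte-macrophage progenitors. All transformed donor cells came from wildtype C57/Bl6 mice with the CD45.2 allele and carried Myc and Bcl2, so arrays on both sides of the split share these. Recipients were 4 to 8 weeks old, had 4.5 to 6 Gy of total body irradiation, and can still hold their own blood cells. Splenocytes were sorted as CD11b and Gr1 positive and as CD3, CD4 and CD8 negative, and 300 ng of total RNA was labelled for each array. The labels do not say that the replicates came from separate mice, so p-values measure the spread between these samples, which may be technical.

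CD11b pairs with the beta chain Itgb2 to form an adhesion and complement receptor. It is best known on neutrophils, monocytes and macrophages, and it is also gained by natural killer (NK) cells late in their maturation, together with the receptor Klrg1 and the cytotoxic granule proteins. In that program the factors Tbx21, Zeb2 and Prdm1 act late, and S1pr5 guides the cells out of the marrow. Tyrobp and Fcer1g are small signalling adaptors used by activating receptors of NK cells and of phagocytes alike.

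Upstream sequence is shown for Itgam, which made the split, and for 3 genes of the groups described here: Ncr1 (an activating NK receptor), Gzmb (a granzyme) and Ifih1 (a sensor of double-stranded RNA induced by interferon). Each is the 250 bases before the RefSeq gene start in the build GRCm38.p6, printed 5′ to 3′ on the strand of the gene, and capitals mark motif matches on either strand. The motifs were chosen with the sequences in view.
Itgam, chr7:128062390-128062639, plus strand, capitals GAGGAA (the core bound by ETS factors such as PU.1), 2 matches: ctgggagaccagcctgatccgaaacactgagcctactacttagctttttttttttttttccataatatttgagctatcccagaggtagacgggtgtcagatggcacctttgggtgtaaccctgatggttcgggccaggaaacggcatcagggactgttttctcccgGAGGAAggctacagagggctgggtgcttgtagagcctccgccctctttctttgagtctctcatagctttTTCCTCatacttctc
Ncr1, chr7:4337465-4337714, plus strand, capitals TGTGGTT (the RUNX core), 1 match: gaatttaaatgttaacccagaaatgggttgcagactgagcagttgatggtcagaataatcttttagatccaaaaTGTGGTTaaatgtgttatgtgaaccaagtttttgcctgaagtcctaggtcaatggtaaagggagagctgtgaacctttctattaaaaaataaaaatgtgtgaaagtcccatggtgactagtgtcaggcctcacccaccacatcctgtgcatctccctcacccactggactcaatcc
Gzmb, chr14:56262335-56262584, minus strand, capitals TGTGGTT, 1 match: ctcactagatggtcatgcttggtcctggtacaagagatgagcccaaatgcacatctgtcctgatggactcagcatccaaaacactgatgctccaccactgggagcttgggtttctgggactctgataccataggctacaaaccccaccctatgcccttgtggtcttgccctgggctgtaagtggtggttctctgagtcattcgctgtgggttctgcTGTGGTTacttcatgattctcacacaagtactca
Ifih1, chr2:62646256-62646505, minus strand, capitals GAAANNGAA (part of the interferon-stimulated response element), 1 match: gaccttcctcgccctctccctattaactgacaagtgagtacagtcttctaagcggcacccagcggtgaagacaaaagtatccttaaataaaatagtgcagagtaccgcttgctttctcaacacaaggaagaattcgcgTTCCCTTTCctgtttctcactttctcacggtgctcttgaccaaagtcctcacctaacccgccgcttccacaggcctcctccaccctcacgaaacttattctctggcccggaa
Among all 32851 promoters of this length in the table, GAGGAA was found in 23.3%, TGTGGTT in 4.40% and GAAANNGAA in 7.13%. The RUNX core was found in 11 of the 25 promoters of the NK receptor and effector list, some of which belong to related genes of 1 cluster, but in 3 of the 22 of the NK maturation list and 2 of the 26 of the interferon list. The interferon motif was found in 10 of the 26 promoters of the interferon list, 2 of the 22 of the NK maturation list and 3 of the 25 of the NK receptor and effector list. GAGGAA was found in 10, 10 and 6 of these promoters in the same order. For the genes called higher across the split, described next, the table held promoters of 87 of 124, and the RUNX core was in 10 of their 111 promoters (9.01%), the interferon motif in 10 and the ETS core in 30. A match is a stretch of letters, and binding was not measured.

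Values are log2 RMA levels per array, and a difference is the mean of arrays 1 and 3 minus the mean of arrays 2, 4 and 5. Itgam was 7.17 in array 1, 3.47 in array 2, 7.38 in array 3, 3.24 in array 4 and 3.42 in array 5. No array lay between 3.47 and 7.17, so arrays 2 and 1 are the nearest on each side of the limit. Itgam was 8.99 to 10.03 in the LSK-derived leukemias, 8.06 to 9.95 with a median of 9.23 in the GMP-derived ones, 3.71 and 3.97 in healthy DN2 cells, and 5.21 and 4.67 in healthy GMP. Thus the higher DN2-derived arrays lay below every LSK-derived and GMP-derived leukemia array, and the 3 lower ones lay below both healthy DN2 arrays. Array medians ran from 3.80 to 3.86, and levels near these are background. In bulk RNA, fewer cells with a gene and less of its RNA per cell cannot be told apart.

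**Figure D1:**
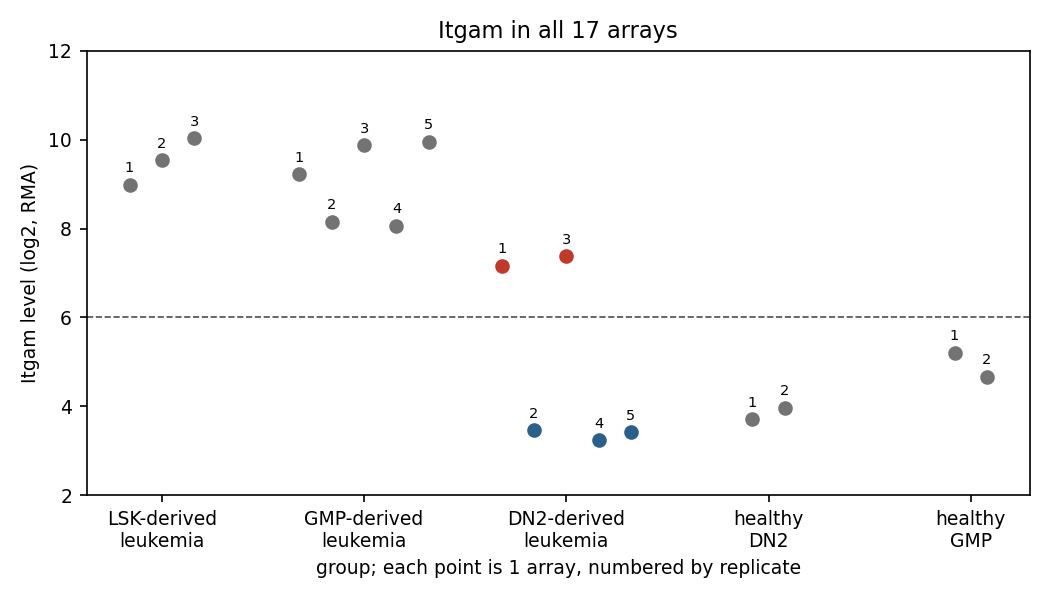
Itgam level (log2, RMA) in each of the 17 arrays by group, numbered by replicate; the dashed line is the limit of 6. The 2 red DN2-derived arrays sit at 7.17 and 7.38 and the 3 blue ones between 3.24 and 3.47.

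The sort genes go in part against the myeloid label in all 5 arrays. Cd3d, a CD3 chain, was 12.23, 12.47, 12.17, 12.55 and 12.38 in arrays 1 to 5, and Cd3g was 11.06 to 11.96. Cd3e was 7.79 to 9.06, against 5.05 to 5.24 in the GMP-derived arrays. Cd4 was near background at 3.45 to 3.63, as was Cd8a at 3.59 to 4.38, while Cd8b1 was 5.84 to 7.81. Ly6c1, whose protein is recognised by the usual Gr1 antibody, was 12.65 to 13.12, and Ptprc (CD45) was 12.86 to 13.09. None of the 8 sort genes was called across the split with limma, and none had an unadjusted p under 0.05 (0 of 8). Mycn, a Myc family gene, was 11.58 to 12.10 in the 5 arrays on the probe set used. Its other probe sets were near background, at 2.87 to 3.05 and 3.21 to 3.61. Myc was 5.48 to 6.35, and Bcl2 was 9.25 to 9.94.

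Across the split, 177 of 11378 genes tested were called at an adjusted p under 0.05 (1.56%; limma, Benjamini-Hochberg over all genes tested), of which 124 were higher (1.09%) and 53 lower (0.466%) in the Itgam-expressing arrays. The spread came from all 17 arrays. At an unadjusted p under 0.05, limma gave 627 of the 11378 genes as higher and 418 as lower. The arrays on the 2 sides did not overlap in 1470 genes that were higher (12.9%) and 1650 that were lower (14.5%), and all 177 called genes were among these. Itgam and genes on the X and Y chromosomes were not tested. Since Itgam made the split, each p states how far these 2 arrays lay from these 3, relative to the spread between arrays, and it stands for no labelled condition. An exact rank-sum test of 2 against 3 arrays cannot give a two-sided p below 0.2. A fit of the 5 DN2-derived arrays alone called 44 genes, 42 higher and 2 lower, and 11 of the 37 named called genes kept their call in it.

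Of the 10 called genes with the largest rises, 5 were on the NK cell lists: Klrg1, Cma1, S1pr5, Gzmb and Ncr1. The NK maturation list held 13 and the NK receptor and effector list 20 of the 11378 genes tested. Both were chosen with earlier results of these data known, so this overlap is a description only. Klrg1, an inhibitory lectin-like receptor of mature NK and effector T cells, was 11.94, 3.98, 11.98, 5.24 and 3.84 in arrays 1 to 5. Arrays 1 and 3 were nearly equal, arrays 2 and 5 lay close to background, as did the GMP-derived leukemias at 3.86 to 4.34, and array 4 lay above both. The log2 difference was 7.61 with a standard error (SE) of 0.38 (adjusted p = 7.55e-08, limma). The LSK-derived leukemias had Klrg1 at 6.39 to 7.59, between the levels of the DN2-derived sets.

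Ncr1, the activating receptor NKp46, was 9.56 and 9.95 in arrays 1 and 3 against 3.40, 4.50 and 3.82 in arrays 2, 4 and 5 (difference 5.85, SE 0.46, adjusted p = 8.23e-06, limma). S1pr5 was 10.13 and 10.66 against 3.98, 5.63 and 3.17 (difference 6.13, SE 0.73). Cx3cr1, a chemokine receptor of mature NK cells and of patrolling monocytes, was 8.25 and 7.87 against 3.16, 3.57 and 3.59 (difference 4.62, SE 0.52), and a second probe set with levels of 3.22 to 4.58 differed by 0.92. In these 3 genes no low array came within 4 log2 units of an expressing array, and within the low set array 4 had the highest Ncr1 and S1pr5. Cma1, a chymase also known from mast cells, was 9.33 and 9.90 against 2.90, 4.12 and 3.17 (difference 6.22, SE 0.55). In the LSK-derived leukemias S1pr5 was 7.51 to 10.53, Cx3cr1 6.79 to 9.33, Ncr1 3.93 to 5.97 and Cma1 3.82 to 6.42.

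Of the 13 tested genes on the list of late NK maturation and its early stage, 6 were called higher and 0 lower. These were Klrg1, S1pr5, Cx3cr1, Prdm1, Cma1 and Gzmb. Over all genes tested, 1.09% were called higher and 0.466% lower. The median difference of the list was 3.35 against -0.0046 over all genes tested. Like the others, this list was chosen with earlier results of these data known, so its count and median are descriptions only. Prdm1, the factor Blimp-1, was 7.35 and 7.55 against 3.98, 4.16 and 4.16 (difference 3.35, SE 0.22, adjusted p = 1.97e-06, limma). Zeb2 was 8.79 and 7.19 against 4.18, 5.45 and 5.28 and did not pass (difference 3.02, SE 0.75, adjusted p = 0.0736, limma). The early-stage genes gave small differences: Kit was near background at 3.19 to 3.56 in all 5 arrays and Cd27 differed by -0.37 (SE 0.24). Eomes and Tbx21, the T-box factors of NK cells, were high on both sides, at 10.16 to 11.19 and 8.30 to 10.49. Neither passed the test. The count for this list was 6 or 7 with each array left out in turn and in every other setting tried.

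The cytotoxic proteins and NK receptors divided into genes that all 5 arrays expressed and genes of the Itgam-expressing arrays. Gzmb was 12.08 and 11.57 against 4.75, 5.46 and 6.94 (difference 6.10, SE 0.59, adjusted p = 5.01e-05, limma). Prf1, the pore-forming perforin, was 8.65 and 8.53 against 4.28, 5.69 and 4.79 (difference 3.67, SE 0.44). Fasl, the death ligand, was 10.17 and 8.95 against 3.81, 6.52 and 5.49 (difference 4.28, SE 0.68). Gzmb was highest among the low arrays in array 5, and Fasl in array 4. Over the 124 genes called higher, array 4 was the highest low array in 65, array 5 in 43 and array 2 in 16. Array 2 was the lowest in 70 of them.

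Gzma rose from a high level, with 13.22 and 13.31 against 10.38, 11.20 and 11.35 (difference 2.29, SE 0.33, adjusted p = 0.00212, limma). By contrast, Gzmk was 10.97 to 12.29 and overlapped (difference 0.39, SE 0.30), as did the interleukin receptor chain Il2rb at 9.27 to 9.87 (difference -0.12, SE 0.21). Cd244a, an NK receptor of the SLAM family, was 9.06 and 8.86 against 4.51, 4.93 and 4.53, and its call (difference 4.30, SE 0.88, adjusted p = 0.0243, limma) was lost without array 1, 2, 3 or 5, at adjusted p from 0.0644 to 0.132. Fasl lost its call without array 1 (3.67, adjusted p = 0.0594, limma). On this list of NK receptors and effectors 20 genes were tested, with a median difference of 1.94. Of these, 16 did not overlap and were higher, against 12.9% over all genes tested. Called higher were 8 (Klrb1f, Ncr1, Cd244a, Cd160, Gzma, Gzmb, Prf1 and Fasl), and 0 were called lower. The shares over all genes tested were 1.09% and 0.466%. Without 1 array at a time the count was 6 to 8, and in the fit of the 5 DN2-derived arrays alone it was 3. Genes of the Klr family are close copies, so a probe set can also measure a neighbour.

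**Figure D2:**
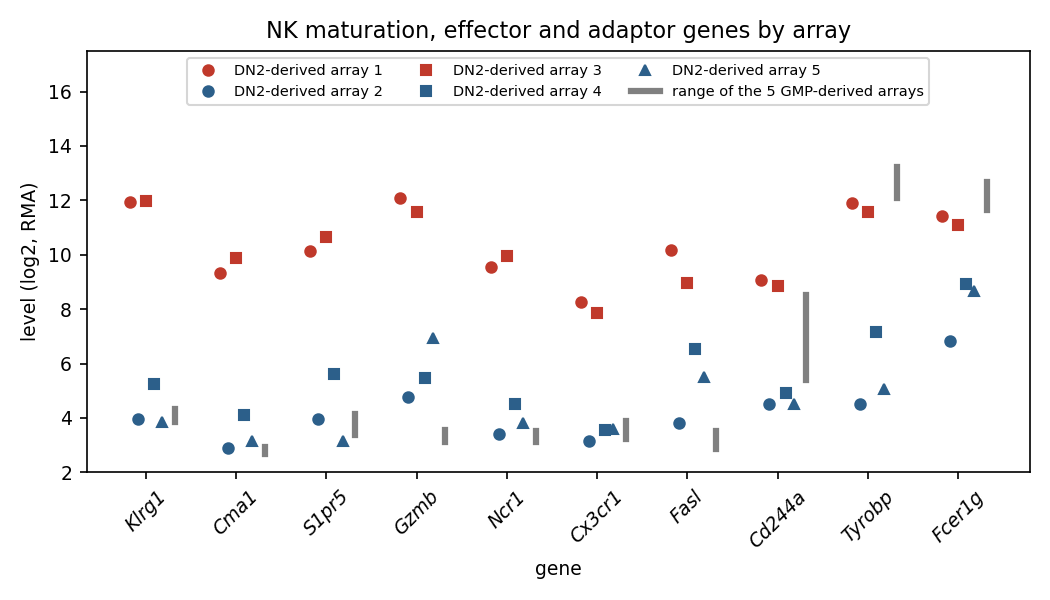
Level (log2, RMA) of NK maturation, effector and adaptor genes in each DN2-derived array (red, arrays 1 and 3; blue, arrays 2, 4 and 5), with the range of the 5 GMP-derived arrays as a grey bar. Red points lie above all blue points for each gene; the GMP-derived bar lies near the lower blue points for Klrg1 and above the red points for Tyrobp.

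The shared adaptors followed the same split. Tyrobp was 11.89 and 11.58 against 4.51, 7.18 and 5.05 (difference 6.16, SE 0.59, adjusted p = 5.01e-05, limma), and 12.08 to 13.24 in the GMP-derived leukemias. Fcer1g was 11.43 and 11.08 against 6.82, 8.91 and 8.66 (difference 3.13, SE 0.54), and without array 1 its call was lost (2.95, adjusted p = 0.0669, limma). The low-affinity Fc receptor Fcgr2b was 11.26 and 11.34 against 6.46, 7.23 and 9.11 (difference 3.70, SE 0.52), and all 4 of its probe sets differed by 3.23 to 4.04. Plcg2, a phospholipase downstream of such receptors, was 9.14 and 9.40 against 6.42, 6.24 and 5.24 (difference 3.31, SE 0.33). These were the 4 genes called higher of 20 tested on the list of Fc and phagocyte receptors, with a median difference of 1.34 and 0 called lower. Among all genes tested, 1.09% were called higher and 0.466% lower. The count was 7 without array 3, 3 without array 1, and 0 with the 5 DN2-derived arrays alone, where 6 had an unadjusted p under 0.05.

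Integrins other than Itgam gave 1 call. Itgax (CD11c), which pairs with Itgb2 as Itgam does and marks dendritic, NK and some macrophage cells, was 8.30 and 8.22 against 3.66, 4.79 and 3.71 (difference 4.21, SE 0.60, adjusted p = 0.00184, limma). Both expressing arrays lay above every GMP-derived leukemia, which had 4.10 to 5.26, but within the range of the LSK-derived ones, 6.5 to 9.1. Itgb2 was 10.97 and 11.09 against 9.92, 10.27 and 9.13 (difference 1.26, SE 0.45, adjusted p = 0.296, limma), so the beta chain was present in the low arrays too. Itgal, the alpha chain of LFA-1, was 9.82 to 11.28 (difference 0.87, SE 0.58). Of 18 integrin and ligand genes tested, 1 was called higher and 0 lower, with a median difference of 0.30. The shares called over all genes tested were 1.09% and 0.466%.

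The genes whose levels followed Itgam most closely in the 12 arrays outside the DN2-derived leukemias had Pearson correlations of 0.985 to 0.992 with it, a description over arrays of 4 groups that share cell types. They were Adpgk, Slfn2, Itgb2, Ccpg1, 4930438A08Rik, Lgals3, Ifitm6, Vasp, B430306N03Rik and Ampd3. None of these 10 was called across the split with limma (0 of 10), and 2, Itgb2 and Lgals3, had an unadjusted p under 0.05. Lgals3, a galectin of macrophages, was 10.76, 7.38, 10.00, 9.29 and 10.22 in arrays 1 to 5 and overlapped. Ifitm6, an interferon-induced membrane protein of myeloid cells, reached 7.90 in array 1 against 3.18 to 4.09 elsewhere. Slfn2 was 10.49 and 10.73 against 9.73, 10.22 and 9.51 (difference 0.79, SE 0.45).

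All 25 tested interferon response genes had a higher mean in the Itgam-expressing arrays, and few of them passed the test. Usp18, which removes the ubiquitin-like protein ISG15, was 7.96 and 9.56 against 3.43, 5.13 and 3.96 (difference 4.59, SE 0.75, adjusted p = 0.00495, limma). Mx1, an antiviral GTPase, was 7.70 and 7.93 against 3.61, 3.89 and 4.43 (difference 3.84, SE 0.75). Ifih1 was 7.48 and 7.58 against 5.42, 5.93 and 4.99 (difference 2.08, SE 0.48), and Oasl1, of the oligoadenylate synthetase family, was 7.70 and 8.44 against 5.36, 5.34 and 5.39. In all 4 genes both expressing arrays lay above the low arrays, and the LSK-derived leukemias had levels at least as high as 6.69.

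Of 25 interferon genes tested, 23 did not overlap and were higher, against 12.9% over all genes tested, and the median difference was 2.02. Of the 25, 4 were called higher and 0 lower, against 1.09% and 0.466% over all genes tested. The count was 4 without array 4 as well, but 1 without array 1, 1 without array 2, 2 without array 5 and 0 without array 3, where limma gave 10 genes with an unadjusted p under 0.05. Usp18 lost its call without array 3 (3.79, adjusted p = 0.0838, limma), and Mx1, Oasl1 and Ifih1 lost theirs without array 1, 2 or 3, at adjusted p from 0.0646 to 0.281 (limma). Oasl1 and Ifih1 also lost theirs without array 5, and Oasl1 without array 4 (adjusted p from 0.0514 to 0.146, limma). In the 5 lists given here with 0 genes called lower, limma gave 0 genes lower at an unadjusted p under 0.05. The mean of Y-linked genes reached 5.99 in array 2 against 3.40 to 3.56 for the remaining DN2-derived arrays, and outside them it was 5.03 to 5.48 in the LSK-derived arrays and 5.61 in GMP-derived array 2, with 3.40 to 3.59 in the rest. With it as a covariate over all 17 arrays the interferon count was 1, and its part in the result was not tested.

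Ccl3 and Ccl4, chemokines of activated NK cells and macrophages, were also called. Ccl4 was 11.64 and 10.71 against 4.27, 6.23 and 7.50 (difference 5.17, SE 0.87, adjusted p = 0.00639, limma), and Ccl3 was 11.42 and 10.83 against 4.63, 6.01 and 7.98 (difference 4.92, SE 0.86). Neither was called without array 1 (adjusted p = 0.0692 and 0.0748, limma), and their close sequences allow shared signal. Fgl2, a fibrinogen-like protein of T cells and macrophages, was 8.60 and 9.34 against 2.95, 3.40 and 3.16 (difference 5.80, SE 0.72). The heparan sulfatase gene Sulf2 was at least 10.94 in arrays 1 and 3 against 3.64, 6.04 and 5.15 (difference 6.03, SE 0.98), but its other probe set, at 6.41 to 7.60, differed by 0.83.

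Phagocyte genes separated the Itgam-expressing arrays from each other. Lyz2, the lysozyme of monocytes, macrophages and neutrophils, was 11.48, 4.33, 6.59, 7.11 and 5.63 in arrays 1 to 5. Array 1 alone was high, and array 3 lay below array 4. The macrophage antigen gene Adgre1 had a level of 7.60 in array 1, with 3.02 to 3.80 elsewhere, and Mpeg1 was 10.01 in array 1, 5.48 in array 3 and 3.60 to 5.21 in the low arrays. Ly86, a partner of a Toll-like receptor, was 8.94 in array 1, 6.10 in array 3 and 3.18 to 4.00 in the rest.

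The mean over the 19 tested monocyte and macrophage genes was 7.73, 4.66, 5.87, 5.23 and 5.04 in arrays 1 to 5. Of these genes 1, Cx3cr1, was called higher, and 5 were without array 3. The share called higher over all genes tested was 1.09%. At least 1 log2 above all 3 low arrays were 3 of the 19 in both expressing arrays, 10 in array 1 alone and 0 in array 3 alone. For the 13 NK maturation genes the same counts were 8, 0 and 1. The genes furthest above the low arrays in array 1 while array 3 lay within their range were Adamdec1, Fabp4, Adgre4, Ear3, Treml4, Hpgd, Nxpe4, Cd300a, Tgfbi and Lyz2, several of them known from macrophages of the spleen and from monocytes. Adamdec1 reached 10.19 in array 1 against 2.96 to 4.01 elsewhere.

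Class II antigen presentation genes were also highest in array 1, while the mean of the 21 interferon-gamma GTPase and class I genes was 9.40 in array 1, 9.52 in array 3 and 8.40 to 8.61 in the low arrays. Of these 21 genes, 11 did not overlap and were higher, against 12.9% over all genes tested. With limma 0 of the 21 were called and 6 had an unadjusted p under 0.05. H2-Aa, an MHC class II chain, was 11.13 in array 1, 7.77 in array 3 and 3.45, 6.59 and 4.83 in arrays 2, 4 and 5. The mean of the 13 class II and dendritic genes was 7.15, 4.19, 5.47, 5.00 and 4.81 in arrays 1 to 5. None of the 13 was called with limma (0 of 13), though 5 had an unadjusted p under 0.05, and 4 were called without array 3. Flt3 was near background at 3.40 to 4.06. Granulin, Grn, was called and was higher in array 1 than in array 3, at 10.45 and 8.53 against 6.62, 6.88 and 6.02 (difference 2.98, SE 0.41).

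Of the 14 late neutrophil genes tested, 10 had a difference above 0, with a median difference of 0.25. Among them 4 did not overlap and were higher and 0 did so and were lower, against 12.9% and 14.5% over all genes. S100a8, a calcium-binding protein of neutrophils, was 7.05, 3.39, 3.87, 4.13 and 8.03 in arrays 1 to 5, and Chil3 was 6.81, 3.60, 3.53, 3.57 and 8.02. Array 5, with low Itgam, had the highest level of both, and array 3, with Itgam at 7.38, was near background. Padi4, an enzyme that citrullinates histones, was 5.56 in both expressing arrays against 5.06, 4.40 and 2.97 and did not pass (difference 1.42, SE 0.52, adjusted p = 0.325, limma). The mean of the 14 genes lay between 3.94 and 5.38 in the 5 arrays, against 11.83 to 12.81 in the GMP-derived leukemias. Anxa1, a calcium-dependent phospholipid-binding protein, was the 1 called gene of the 14, at 8.83 and 8.54 against 5.67, 5.60 and 5.57 (difference 3.07, SE 0.26, adjusted p = 1.83e-05, limma). The share called higher over all genes tested was 1.09%. Spi1, the gene of PU.1, was 6.56 in array 1, 3.96 in array 3 and 3.69 to 4.66 in the low arrays, and 0 of 15 myeloid transcription factor genes were called with limma, with 3 higher and 1 lower at an unadjusted p under 0.05. The mean of the 9 tested red pulp macrophage genes reached 4.59 in array 1 against 3.45 to 3.81 elsewhere among the 5 arrays, and 4 of the 9 were at least 1 log2 above all low arrays in array 1 alone. Spic, a transcription factor of these macrophages, was 6.24 in array 1 against 3.72 to 3.82, while C1qa and Cd5l were at most 4.34 and 3.75. With limma 0 of the 9 were called, and 0 had an unadjusted p under 0.05. The part of phagocytes in the differences of array 1 was not tested.

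**Figure D3:**
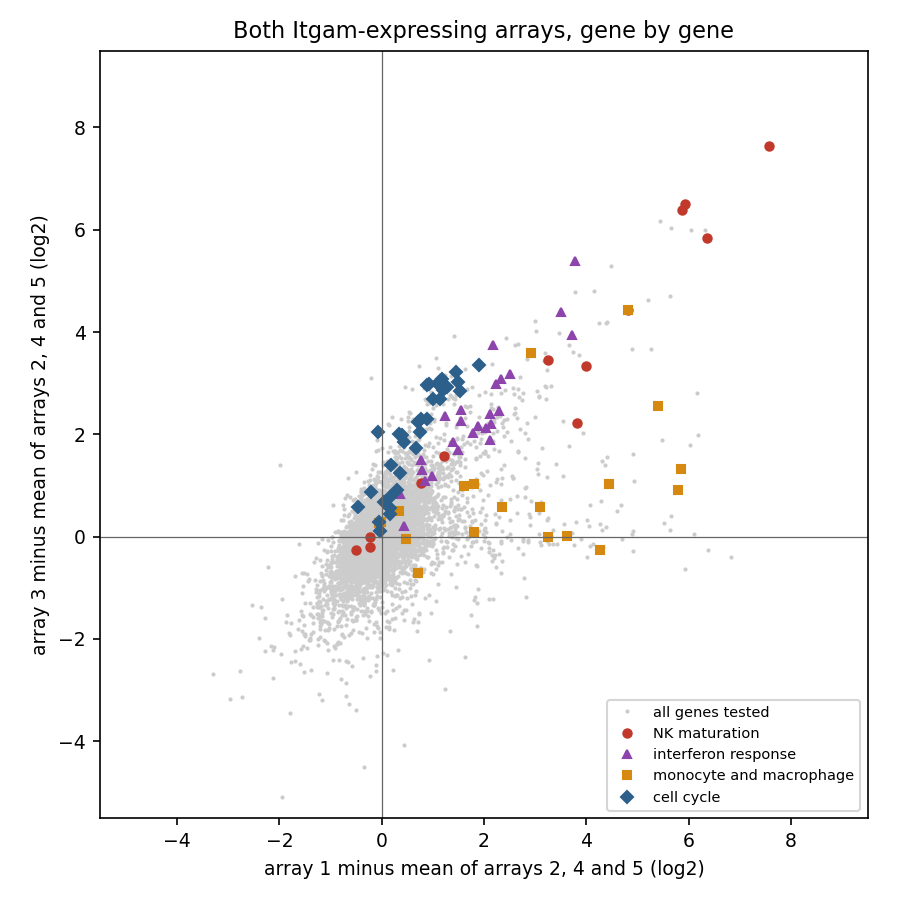
Each point is a gene: array 1 minus the mean of arrays 2, 4 and 5 (horizontal, log2) against array 3 minus the same mean (vertical, log2). Both axes share the 3 low arrays. Of 13 NK maturation genes, 8 were at least 1 log2 above every low array in both arrays. On the same measure 10 of 19 monocyte and macrophage genes were so in array 1 alone, and 21 of 33 cell cycle genes in array 3 alone.

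Cell cycle genes were highest in array 3. The mean of the 33 S-phase and mitosis genes was 7.80, 6.93, 9.11, 7.95 and 6.54 in arrays 1 to 5, so array 1 lay just below array 4 of the low set. Mki67, the proliferation antigen, was 9.29 in array 1, 10.60 in array 3 and 7.30, 8.89 and 7.08 in the low arrays. E2f8, a repressor of the E2F family, reached 8.35 in array 3 against 4.58 to 6.47 elsewhere. In array 3 alone 21 of the 33 were at least 1 log2 above all low arrays, and in array 1 alone or in both arrays it was 0. None was called with limma (0 of 33), and the median difference was 1.40. With limma 22 of the 33 were higher at an unadjusted p under 0.05, against 627 of 11378 over all genes tested. Without array 1 the median difference was 2.04, and without array 4 the number called was 13.

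Over all genes tested, 146 were at least 1 log2 above all 3 low arrays in both expressing arrays, 222 in array 1 alone and 191 in array 3 alone. In the other direction, 25 were that far below all low arrays in both, 13 in array 1 alone and 116 in array 3 alone. After each gene was centred over the 5 arrays, the correlation across genes of array 1 with array 3 was 0.18, and that of array 2 with array 4 was 0.29. Array 5 had -0.57 with array 3 and 0.014 with array 2. Array 4 had -0.31 with array 5 of its own set and -0.13 with array 3 of the other. Array 1 had -0.56, -0.44 and -0.35 with arrays 2, 4 and 5, and array 3 had -0.53 with array 2. These correlations describe genes that are not independent, and centring draws values below 0.

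**Figure D4:**
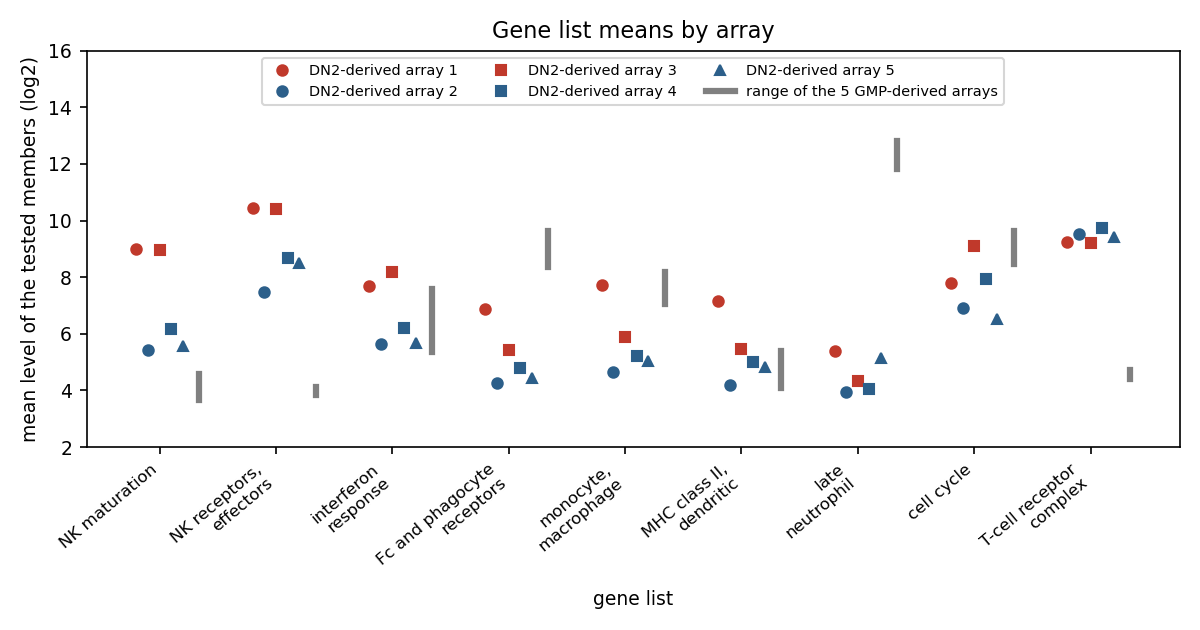
Mean log2 level of the tested members of 9 gene lists in each DN2-derived array, with the range of the 5 GMP-derived arrays as a grey bar. For NK maturation arrays 1 and 3 sit together above the low arrays; for monocyte and macrophage genes array 1 (7.73) is apart from array 3 (5.87), and for cell cycle genes array 3 (9.11) is apart from array 1 (7.80).

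The genes that fell were fewer and changed less. Wwc1, a scaffold of the Hippo pathway also named Kibra, was 6.71 and 5.58 in arrays 1 and 3 against 8.24, 8.24 and 8.23 in arrays 2, 4 and 5 (difference -2.09, SE 0.28, adjusted p = 0.00127, limma). Of its other 3 probe sets 1 differed by -1.70 and the other two were near background. Prss12, a serine protease, was 6.25 and 5.04 against 8.06, 7.47 and 7.40 (difference -2.00, SE 0.29). Ret, a receptor tyrosine kinase, was 3.44 and 3.48, near background, against 4.84, 6.63 and 5.71 (difference -2.26, SE 0.34). In the GMP-derived leukemias the 3 genes were at most 4.08, so for Wwc1 and Prss12 all 5 DN2-derived arrays lay above them, and for Ret the Itgam-low arrays did.

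The largest fall was that of St8sia6, a sialyltransferase, with 7.19 and 4.05 against 10.35, 9.42 and 7.64 (difference -3.51, SE 0.79, adjusted p = 0.042, limma). It rested on array 3: without it the difference was -1.94 (adjusted p = 0.601, limma). Trib2, a pseudokinase, was 6.78 and 4.74 against 8.21, 7.97 and 7.64 (difference -2.18, SE 0.41). It had -1.16 without array 3 (adjusted p = 0.0768, limma). The other largest falls were D930003E18Rik, Pgap1, Pls1, Plce1 and Mapk12, with differences from -2.93 to -2.11. Plce1 and Mapk12, like Ret, passed the filter only through the Itgam-low arrays, so their differences are descriptions only. Without array 3 each of these 5 lost its call, at adjusted p from 0.0816 to 0.271 (limma), with differences of -2.73, -2.12, -2.13, -2.11 and -1.77 in the same order, all within 1.5 times those with it. Further losses came without array 1 (Pgap1, Pls1 and Plce1), array 2 (St8sia6, Pgap1 and Trib2), array 4 (St8sia6) and array 5 (Pgap1), at adjusted p from 0.0545 to 0.163 (limma). Over all genes, 17 were called lower without array 3 and 72 without array 4.

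T-lineage genes had small median differences. Of 18 tested genes of the T-cell receptor complex, 5 did not overlap and were lower, against 14.5% over all genes tested. None did so and was higher (0 of 18). With limma 4 were lower and 0 higher at an unadjusted p under 0.05. Of the 18, 1 was called lower and 0 higher, against 0.466% and 1.09% over all genes tested, with a median difference of -0.28. That gene was Trat1, which stabilises the receptor complex, at 8.39 and 8.03 against 9.08, 9.02 and 9.85 (difference -1.10, SE 0.25, adjusted p = 0.0434, limma), and it was not called without array 1, 2, 3 or 5, at adjusted p from 0.0516 to 0.411. Cxcr5, the receptor for the follicle chemokine, was 4.97 and 5.66 against 7.44, 7.92 and 6.40 (difference -1.94, SE 0.35, adjusted p = 0.00914, limma). It lost its call without array 1 (-1.59, adjusted p = 0.113, limma). Bcl11b, a T-lineage factor, was 8.30 to 9.67 and overlapped, and 0 of 15 T-lineage factors were called with limma, with 2 at an unadjusted p under 0.05.

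Among B-cell genes Jchain, the joining chain of secreted antibodies, was 6.67 and 7.68 against 3.18, 3.20 and 4.58 (difference 3.52, SE 0.68, adjusted p = 0.016, limma), and it lost its call without array 2 or 3 (adjusted p = 0.0675 and 0.192, limma). It was the 1 called gene of 8 tested, against 1.09% called higher over all genes tested. Of the 8, 7 had a difference above 0, and the median difference was 1.03. Of the 8, 5 did not overlap and were higher, against 12.9% over all genes tested. Cd22, a B-cell receptor for sialic acids, was 6.06 and 6.73 against 4.38, 4.47 and 4.95 (adjusted p = 0.122, limma), and Ms4a1 (CD20) was 4.73 and 5.43 against 3.07, 2.97 and 3.28 (adjusted p = 0.124, limma). Cd79a was 3.81 to 4.48 and Ighm 2.81 to 3.35. Jchain was 10.47 to 12.89 in the LSK-derived leukemias.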

How the data were processed

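Expression was measured on Affymetrix arrays. The deposited values are log2 RMA summaries per probe set made by the authors with RMA and affy, per the submitters' processing notes; the sources used here give neither versions nor whether arrays were normalized together. Of 45141 probe sets, 104 controls were left out, 28898 had 1 gene symbol and 28689 matched RefSeq GRCm38.p6. Each of 17097 genes took the probe set with the highest mean. Genes whose highest group mean passed 3.83 were tested (11378), without Itgam and 608 sex-linked genes. The fit was limma 3.58.1 in R 4.3.3 (lmFit, eBayes; 17 arrays, 6 means), two-sided, with Benjamini-Hochberg adjustment at 0.05, and was tested on simulated data. Named genes were the integrin and sort genes, the 10 largest rises and falls among called genes without overlap, up to 4 genes per list (called first, by size), and the 10 most like Itgam; Prdm1, Prf1, Gzma, Gzmk, Il2rb, Cd27, Eomes, Tbx21, Kit, Cd160, Klrb1f and others were named after their values were seen. Members and lists were chosen with earlier results of these data known. Alternatives varied the arrays, filter, probe sets, scaling, moderation, covariate, replicate block and left-out arrays. The number of arrays limits the precision.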

Additional observations from a re-analysis of the deposited data

Results flagged for a closer look

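In the means of 5 of 40 gene lists, 1 of the 5 DN2-derived arrays stood apart from the other 4 by Dixon's criterion, which chance meets in about 1 in 20 groups. The lysosome mean reached 9.82 in array 1 against 8.44 to 8.76 elsewhere. The Gimap mean was 9.11 in array 5 against 10.06 to 10.21, the antigen receptor recombination mean was 4.57 in array 5 against 5.07 to 5.25, and the primary granule mean was 6.00 in array 5 against 5.56 to 5.66. The Myc network mean was 8.36 in array 4 against 8.21 to 8.24. Array 5 was apart in 3 of the 5 lists.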

How the results depend on the processing

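Against 177 calls (124 higher, 53 lower), the fit of the 5 DN2-derived arrays alone gave 44 (42 higher, 2 lower). The replicate block gave 63 (53 higher, 10 lower). Same-numbered leukemia arrays of different groups had correlations of their deviations from -0.30 to 0.25, over 0.1 in 5 of 11 pairs. Differently numbered ones had -0.24 to 0.34, over 0.1 in 11 of 44 pairs. These ranges overlap, so they cannot decide whether the numbers pair the samples. With each DN2-derived array left out, 137 to 256 genes were called, 90 to 184 of them higher and 17 to 72 lower. Where this left 1 expressing array, its spread was taken from the other groups. Every other alternative run stayed within 1.5 times each count. Of the 37 named genes called, 8 were called under every alternative (Anxa1, Cma1, Cx3cr1, Fgl2, Gzmb, Itgax, Klrg1 and Ncr1), 17 were called with any 1 array left out, and no difference changed sign. The cause of these shifts was not tested. Levels near background compress differences.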
